A study of Mus musculus with 8 samples.

Results

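The 38 genes described here encode the enzymes of glycolysis, glycogen synthesis and glycogen breakdown in skeletal muscle, with the lactate carriers and the regulators of fructose 2,6-bisphosphate that belong to the same route. They were chosen by name, as members of these pathways, and all 38 were found among the 49315 genes counted. All 38 also passed the filter on low counts, which kept 19571 genes. The tissue is gastrocnemius, the large calf muscle, from C57BL/6 mice aged 3, 12, 24 or 30 months. Each age has 2 libraries, and no treatment or altered allele is named for any group. The series compares the muscle transcriptome across these ages.

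Glycolysis splits glucose into pyruvate in the cytosol, and its second stage, from glyceraldehyde phosphate to pyruvate, is the one that yields ATP. Fast muscle fibres, which make up most of the gastrocnemius, store glucose as glycogen and rely on glycogenolysis and glycolysis for short bursts of force, releasing lactate. Several steps have a muscle isoform and other isoforms shared with other tissues, for example Pfkm, Pgam2, Eno3 and Pygm on the muscle side. Glycogen synthase is activated, and glycogen phosphorylase is switched off, by protein phosphatase 1, which glycogen-targeting subunits such as Ppp1r3a and Ppp1r3c bring to the glycogen particle.

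Library totals were 42404254 to 59245029 counts, and a gene with no count in a library could still reach 0.0506 to 0.0707 CPM there, by counting error alone. CPM, the unit of all levels here, is the count scaled to the library total after TMM adjustment. Whether same-aged libraries stem from different animals is not stated in the labels. The p-values therefore measure the spread between libraries, and that spread may be technical. The libraries differ in a way that age does not explain. The summed level of 9 kidney genes came to 51.4 and 16.7 CPM in the youngest pair, 4.97 in replicate 1 of 12 months, 3.98 in replicate 1 of 24 months and 3.52 in replicate 2 of 30 months. In the other 3 libraries it was 0.351 to 0.584 CPM. The 3 libraries without kidney transcripts also had the highest level of the clock gene Dbp, at 65.3 to 81.0 CPM against 8.32 to 30.8 CPM in the 5 others. Each later age therefore holds 1 library of each kind and 3 months only libraries with kidney transcripts, and at 3 months age and this set cannot be told apart. Replicate 2 of 30 months stood apart in fibre markers too. Its summed level of 12 fast fibre genes was the lowest of the 8 libraries, 96352 CPM against 111105 to 167572 CPM, and its 10 slow fibre genes summed to 3007 CPM against 560.0 to 1754 CPM.

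The 38 genes together took 4.30% and 4.76% (3 months), 4.36% and 4.43% (12 months), 3.97% and 4.10% (24 months) and 4.22% and 3.45% (30 months) of the counts of their libraries. Replicate 2 of 30 months had the lowest share, and the other 7 libraries lay between 3.97% and 4.76%. In bulk muscle, fewer fibres of a type and less RNA per fibre cannot be told apart. Beside the summed fast fibre genes, the summed level of the 38 genes came to a ratio of 0.354 and 0.319 (3 months), 0.334 and 0.313 (12 months), 0.308 and 0.282 (24 months) and 0.296 and 0.317 (30 months). On that ratio replicate 2 of 30 months lay inside the range of the other libraries.

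Levels set against the exon length given with the counts were highest for Aldoa and several muscle isoforms. The median over libraries, in CPM per kilobase of exon, was 2964 for Aldoa (aldolase), 2207 for Eno3 (the muscle enolase), 1869 for Pygm (muscle glycogen phosphorylase) and 1471 for Pgam2 (muscle phosphoglycerate mutase). Pfkm, the muscle phosphofructokinase that commits sugar to glycolysis, followed at 974, Gapdh at 844, Pkm (pyruvate kinase) at 663 and Ldha (the lactate dehydrogenase subunit typical of fast muscle) at 589. The order depends on that exon length, which was 840 bases for Pgam2, 2957 for Pfkm, 4133 for Gapdh and 5001 for Pkm. Without it the median was 1235 CPM for Pgam2, below Pfkm (2879), Pkm (3315) and Gapdh (3486). In all, 16 members had a median above 100 CPM per kilobase. At the other end 7 members lay below 3 CPM per kilobase, from Pgam1 at 2.69 down to Hk1 at 0.852 and Aldoc, the brain aldolase, at 0.119.

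**Figure D1:**
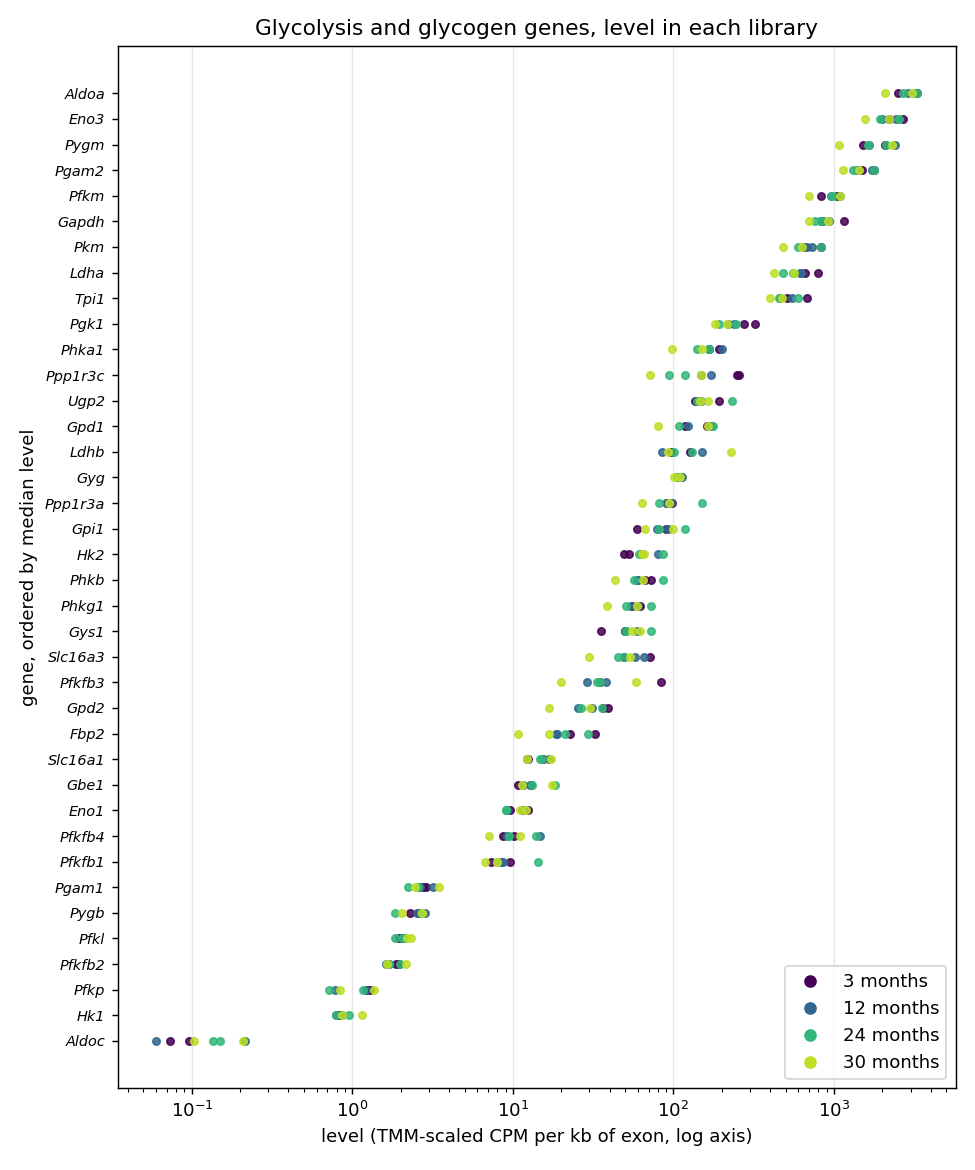
Level of each of the 38 genes in the 8 libraries, in TMM-scaled CPM per kilobase of exon on a log axis, with 1 point per library coloured by age and genes ordered by median. The levels run from a median of 0.119 for Aldoc to 2964 for Aldoa, and the points of most genes lie close together beside that range.

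The muscle isoform made up nearly all of the per-kilobase level of its step in every library. Pfkm held 99.5% to 99.7% of the phosphofructokinases, Pgam2 99.7% to 99.9% of the mutases, Eno3 99.2% to 99.6% of the enolases, Pygm 99.7% to 99.9% of the phosphorylases and Hk2, the insulin-responsive hexokinase, 98.2% to 99.1% of the 2 hexokinases listed. Steps with a less one-sided division were lactate dehydrogenase, the lactate carriers and the bifunctional PFKFB enzymes, which make and break fructose 2,6-bisphosphate. Ldha held 65.2% to 89.1% of its pair and Slc16a3, the lactate exporter of fast fibres, 63.2% to 85.3% of its pair, and for both the lowest share was in replicate 2 of 30 months. Pfkfb3 held 53.8% to 79.4% of the 4 PFKFB genes. It also had the widest spread of any member, 4.17-fold between its highest library (630 CPM, replicate 2 of 3 months) and its lowest (151 CPM, replicate 2 of 30 months). The smallest spread was 1.13-fold, for Gyg, the glycogenin that primes a new glycogen particle, at 236 to 267 CPM.

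No member passed an adjusted p below 0.05 in any of the 5 tests by edgeR's quasi-likelihood test with Benjamini-Hochberg adjustment over all genes tested. For 30 against 3 months the share of all genes called was 0.148%, for 24 against 3 months 0.102%, for 12 against 3 months 0.0409%, for 30 against 12 months 0.00511%, and for the slope on age in months 0.133%. A count of 0 among 38 genes is close to these shares. The 3 comparisons with 3 months share the same 2 libraries and are not independent of each other. At an unadjusted p below 0.05 the members past it numbered 5, all lower, for 30 against 3 months, where 3.34% of all genes were past it and lower. They were Ppp1r3c, Fbp2, Pgk1, Gpd2 and Ldha, and in either direction 8.52% of all genes were past it. The slope also had 5, all lower (4.4% of all genes were lower and 9.83% in either direction), namely Ppp1r3c, Ldha, Pgk1, Phka1 and Slc16a3. For 24 against 3 months there were 2, Hk2 higher and Ppp1r3c lower (7.56% of all genes in either direction), for 12 against 3 months 1, Hk2, higher (5.5%), and for 30 against 12 months 0 (5.21%).

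Other tools gave few calls. DESeq2 called 2 members for 30 against 3 months, Fbp2 and Ppp1r3c, both lower, where it called 1.03% of all genes. It called Ppp1r3c for 24 against 3 months (0.646%) and Ldha and Ppp1r3c for the slope (1.2%), and no member for 12 against 3 months (0.336%) or 30 against 12 months (0.3%). With edgeR and no filter on low counts, Fbp2 and Ppp1r3c were called for 30 against 3 months (1.12%) and Ppp1r3c for 24 against 3 months (0.693%) and the slope (0.318%). limma-voom called no member in any of the 5. It called 0.112%, 0.0511% and 0.0358% of all genes for 30, 24 and 12 against 3 months. For 30 against 12 months it called 0.00511% and for the slope 0.107%. In simulated data for 30 against 3 months, over 19236 to 19250 genes, the edgeR test recovered 2.49% of genes changed 1.5-fold, 53.7% of those changed 2-fold and 97.5% of those changed 4-fold. Changes of 1.5-fold were thus mostly not detectable with this design.

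Below 0 lay the log2 fold changes of 27 of the 38 genes for 30 against 3 months, with a median of -0.18, whereas 48.6% of all genes tested lay below 0 and their median was 0.01. For 24 against 3 months 20 lay below 0 (median -0.03, 48.1% of all genes), for 12 against 3 months 19 (median 0.00, 49.5%), and for 30 against 12 months 25 (median -0.18, 50.8%). The median for 30 against 3 months moved with single libraries. Leaving out replicate 2 of 3 months moved it to -0.04, leaving out replicate 2 of 30 months to -0.11, and leaving out replicate 1 of 30 months to -0.44. Without replicate 1 of 24 months the median for 24 against 3 months was 0.06 (17 below 0), and leaving out replicate 2 of that age made it -0.19 (25 below 0). In the fit that holds the library set, the medians for 12, 24 and 30 against 3 months were -0.15 (27 below 0), -0.12 (26 below 0) and -0.38 (25 below 0). Without replicate 2 of 30 months the median for 30 against 12 months was -0.02. The slope was below 0 for 26 of the 38 genes and for 48.3% of all genes. Of the 38 genes, 22 had their lowest level of all 8 libraries in replicate 2 of 30 months, as did 15.0% of all genes, and 11 had their highest in replicate 2 of 3 months (9.63% of all genes).

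**Figure D2:**
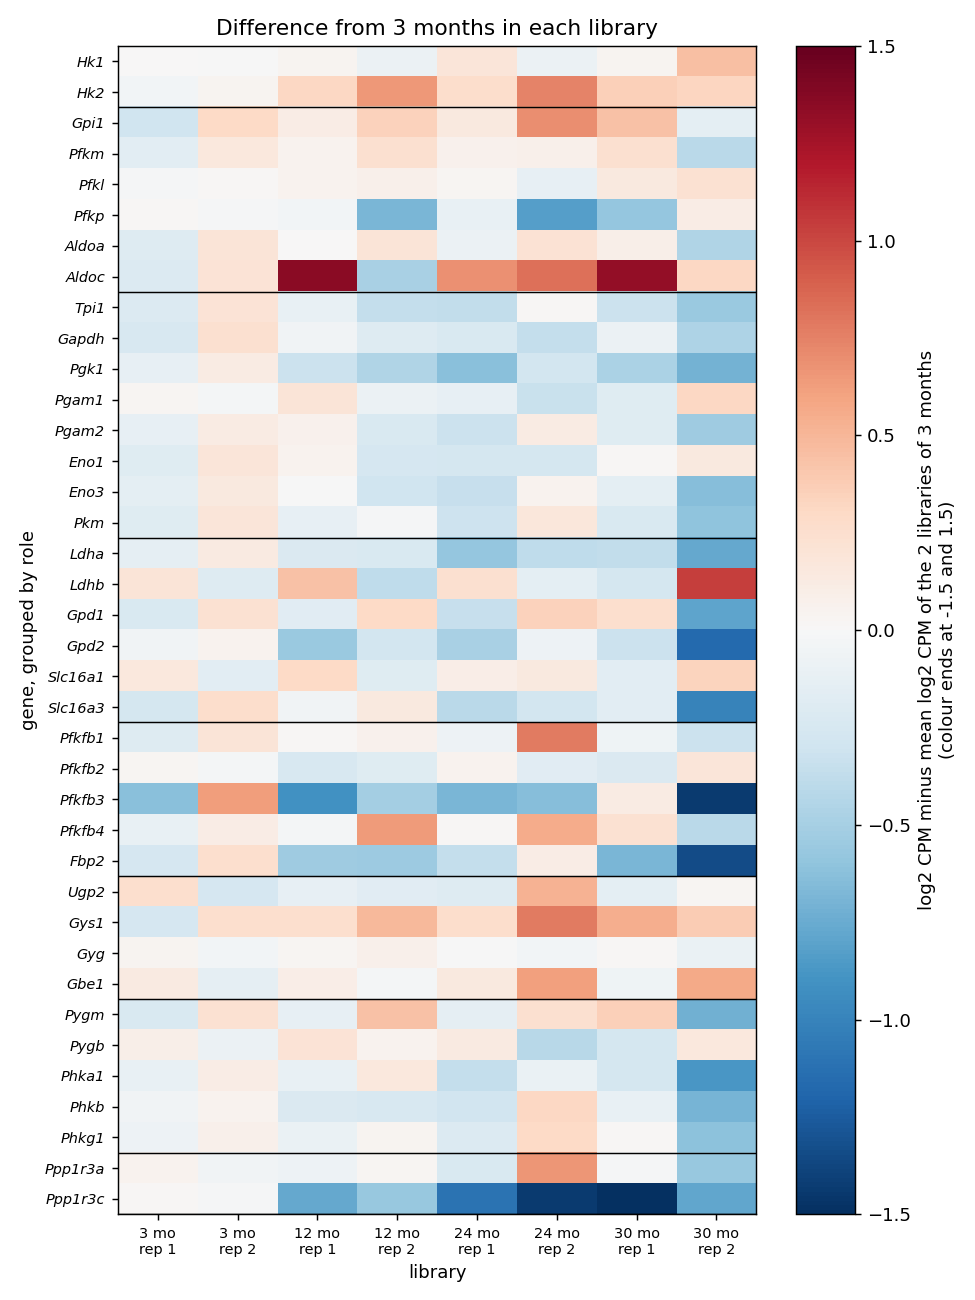
Log2 difference of each library from the mean of the 2 libraries of 3 months for the 38 genes, grouped by role, with libraries in columns and colour for the difference. The column of replicate 2 of 30 months is mostly below 0, while replicate 1 of 30 months differs from it for many genes.

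Sequences just before the start site are shown for the 4 members that had the lowest p for 30 against 3 months or for the slope, as context for their values. They come from RefSeq's promoter table on GRCm38.p6, read 5′ to 3′ on the gene's strand up to the start site, without bases that an annotated exon of the gene holds. For Fbp2 that leaves out 22 bases nearest the start and for Ppp1r3c 49. Capitals mark ACGTG on either strand, the core letters of the hypoxia response element, which the glycolytic regulator HIF is known to bind. Where the letters read CACGTG, an E-box, ACGTG is held on both strands.
Ppp1r3c, chr19:36736654-36736854, minus strand: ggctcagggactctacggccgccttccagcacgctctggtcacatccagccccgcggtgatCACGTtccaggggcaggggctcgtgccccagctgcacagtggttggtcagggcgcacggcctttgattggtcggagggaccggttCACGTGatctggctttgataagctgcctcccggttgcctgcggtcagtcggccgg
Fbp2, chr13:62858423-62858650, minus strand: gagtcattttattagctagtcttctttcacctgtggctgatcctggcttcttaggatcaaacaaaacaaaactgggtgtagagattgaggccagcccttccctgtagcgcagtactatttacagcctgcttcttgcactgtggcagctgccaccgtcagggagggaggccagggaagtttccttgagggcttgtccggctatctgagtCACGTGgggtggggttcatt
Ldha, chr7:46845554-46845803, plus strand: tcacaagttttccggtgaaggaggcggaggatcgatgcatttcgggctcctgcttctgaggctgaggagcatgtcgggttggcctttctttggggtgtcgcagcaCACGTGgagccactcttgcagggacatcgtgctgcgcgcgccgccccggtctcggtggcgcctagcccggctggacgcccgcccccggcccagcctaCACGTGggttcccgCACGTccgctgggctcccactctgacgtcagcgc
Pgk1, chrX:106186850-106187099, plus strand: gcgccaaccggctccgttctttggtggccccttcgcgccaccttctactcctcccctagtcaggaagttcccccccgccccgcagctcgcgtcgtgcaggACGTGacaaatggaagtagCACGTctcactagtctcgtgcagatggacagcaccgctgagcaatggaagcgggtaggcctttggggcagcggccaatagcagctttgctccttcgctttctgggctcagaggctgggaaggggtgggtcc

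All 4 windows hold the letters ACGTG, in Ldha at 3 places. The Ldha window lies inside the gene's outer bounds, in the first intron of a transcript that starts farther upstream, and the other 3 lie outside their genes. A promoter entry was matched for 37 of the 38 members (Gpd1 was not matched). Within the 250 bases before the start site, ACGTG on either strand was found in 13 of the 37 (35.1%) and in 16.6% of the 32851 promoters of the table. CACGTG was found in 5 of the 37 (13.5%) and in 6.02% of the table. TATAAA on either strand was found in 1 of the 37, Ppp1r3a (2.70%), and in 12.4% of the table. A match describes letters only, and whether base composition sets these shares was not tested.

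Among the regulators of glycogen, Ppp1r3c had the lowest p of the members in 3 of the 5 tests. It encodes a subunit, also called protein targeting to glycogen, that binds glycogen, protein phosphatase 1 and the enzymes of glycogen metabolism, and it lies at chr19:36731737-36736653 on the minus strand. Its level was 701 and 678 CPM (3 months), 404 and 464 (12 months), 319 and 255 (24 months) and 193 and 401 (30 months). All 6 later libraries lay below both libraries of 3 months, a pattern that 4 members and 6.09% of all genes shared. The 30 month libraries differed from each other by more than those of any other age and overlapped the range of 24 months. Both lay below the 12 month libraries (15.7% of all genes), 1 of them narrowly, at 401 against 404 CPM.

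Against 3 months the log2 fold change of Ppp1r3c was -0.67 at 12 months (SE 0.31, adjusted p = 0.899), -1.26 at 24 months (SE 0.31, adjusted p = 0.331) and -1.21 at 30 months (SE 0.31, adjusted p = 0.252). The slope was -0.0466 log2 units per month (SE 0.00975, unadjusted p = 0.000552, adjusted p = 0.0981 by edgeR's quasi-likelihood test). DESeq2 gave adjusted p values of 0.00227 for 24 and 0.00271 for 30 against 3 months and 0.00131 for the slope. Within the libraries with kidney transcripts, the log2 difference from 3 months was -0.77 at 12 months, -1.11 at 24 months and -0.78 at 30 months. Between 12 and 30 months it was -1.27 in the libraries without these transcripts and -0.01 in those with them. Leaving out replicate 1 of 30 months made the fold change for 30 against 3 months -0.78 (adjusted p = 0.358). Without replicate 2 of 30 months it was -1.83 and its adjusted p 0.0249 by edgeR's test, where 0.205% of all genes were called. Without that library Ppp1r3c was also called on the slope (0.274%), and without either library of 30 months for 24 against 3 months (0.161% without replicate 2, 0.16% without replicate 1). Without the 3 month libraries no member had a slope with an unadjusted p below 0.05.

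Ppp1r3a, the glycogen-targeting subunit specific to striated muscle, was at 444 to 1043 CPM and was highest in replicate 2 of 24 months. Gys1, the muscle glycogen synthase that the targeted phosphatase activates, was at 170.0 and 241 CPM (3 months), 241 and 282 (12 months), 242 and 348 (24 months) and 296 and 263 (30 months). Its 6 later libraries lay above both libraries of 3 months, by a margin of under 1 CPM in the closest case, and Hk2 was the only other member with that pattern (6.86% of all genes). The log2 fold change of Gys1 was 0.52 at 24 months (SE 0.24, adjusted p = 0.662) and 0.44 at 30 months. The value at 24 months was 0.23 without replicate 2 of that age, and at 3 months the omission of replicate 1 made it 0.29 and that of replicate 2 0.80. Gys1 overlaps Ruvbl2 in the annotation and how the counting treated strand is unknown here, but all counts of Ruvbl2 came to 8.28% of those of Gys1. Of the 4 synthesis genes, which also include Ugp2, Gyg and the branching enzyme Gbe1, 2 lay above and 2 below 0 for 30 against 3 months, with a median of 0.12.

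Breakdown genes lay below 0 for 30 against 3 months in 5 of 5 cases (48.6% of all genes), with a median of -0.26. Nearest 0 was Pygb, at -0.04. At 24 months 2 of 5 lay below 0 (median 0.04, 48.1% of all genes) and at 12 months 2 of 5 (median 0.02, 49.5%). Phka1, the muscle alpha subunit of the kinase that switches on phosphorylase, was at 1043 and 1211 CPM (3 months), 1039 and 1249 (12 months), 875 and 1045 (24 months) and 937 and 612 (30 months). The 30 month libraries were both below all 4 libraries of 3 and 12 months, though replicate 1 was above a library of 24 months. Of all genes, 20.2% had both 30 month libraries below both of 3 months and 15.7% had them below both of 12 months. Its log2 fold change for 30 against 12 months was -0.56 (SE 0.25, adjusted p = 0.95), which became -0.91 when replicate 1 of 30 months was left out and -0.29 when replicate 2 was. Its slope had an unadjusted p of 0.0323 (adjusted p = 0.443). Pygm was at 4890.0 and 6739 CPM (3 months), 5289.6 and 7768 (12 months), 5231 and 6804 (24 months) and 7366 and 3471 (30 months). At 30 months its 2 libraries were the second highest and the lowest of all 8, and its age groups overlapped throughout.

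**Figure D3:**
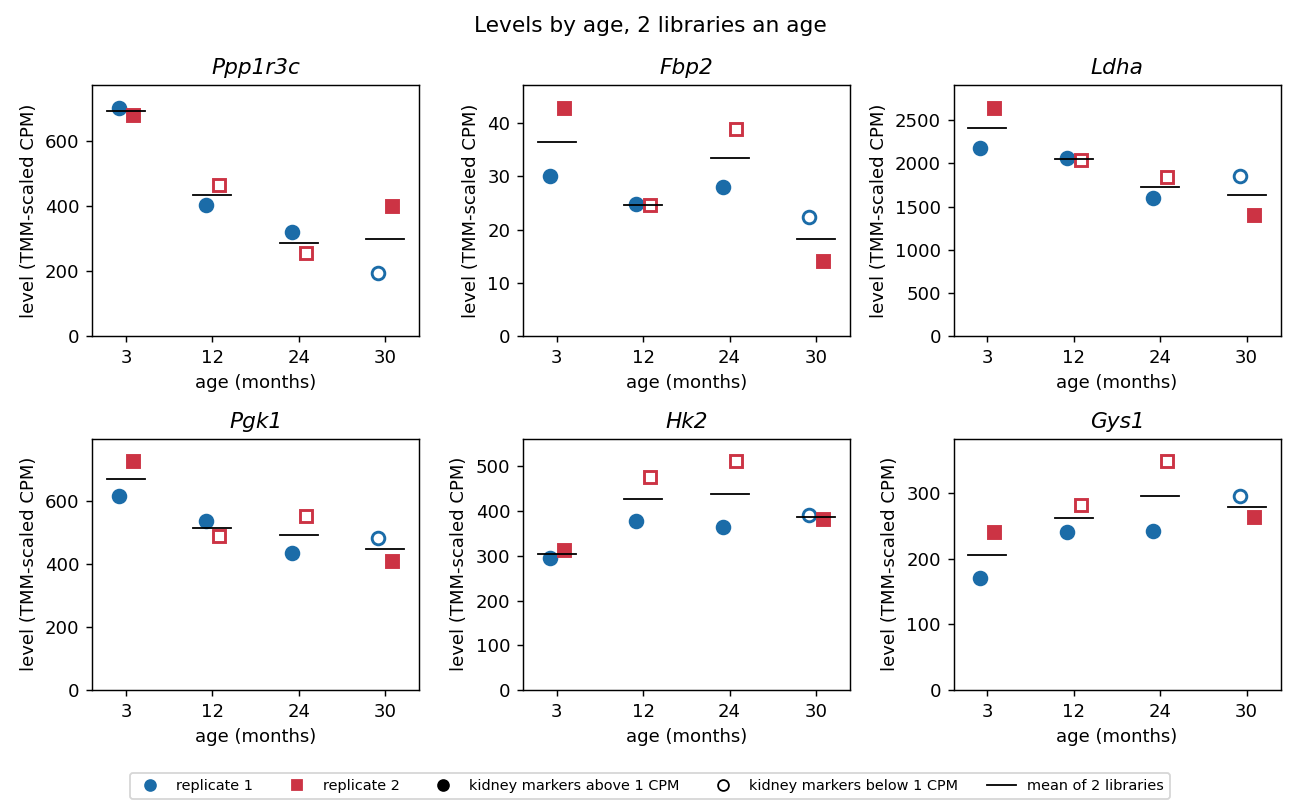
Level in TMM-scaled CPM by age in months, for 6 members, with circles for replicate 1, squares for replicate 2, open symbols for the libraries without kidney transcripts and a dash at the mean of the 2 libraries; the vertical axes start at 0. Ppp1r3c is highest in the 2 libraries of 3 months, at 701 and 678 CPM, and Hk2 and Gys1 are lowest there.

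Fbp2, the muscle fructose bisphosphatase, runs the phosphofructokinase step backwards and is used when muscle rebuilds glycogen from lactate. Its level was 30.1 and 42.8 CPM (3 months), 24.8 and 24.6 (12 months), 28.0 and 38.7 (24 months) and 22.3 and 14.2 (30 months). Both libraries of 30 months were the lowest of the 8, whereas those of 24 months overlapped those of 3 months. Both libraries of 30 months lay below both of 3 months for 10 members and 20.2% of all genes, and below both of 12 months for 15.7% of all genes. Its log2 fold change for 30 against 3 months was -1.0 (SE 0.26, unadjusted p = 0.00372, adjusted p = 0.259 by edgeR's quasi-likelihood test), and DESeq2 gave an adjusted p of 0.0265. Leaving out replicate 2 of 30 months moved it to -0.71, and leaving out replicate 2 of 3 months to -0.72. For 12 against 3 months it was -0.56 (adjusted p = 0.899), and -0.28 without replicate 2 of 3 months. Within the libraries with kidney transcripts, Fbp2 was lower than at 3 months by a log2 difference of -0.53 at 12 months, -0.36 at 24 months and -1.34 at 30 months. Each of these later values is 1 library, and that of 30 months is replicate 2. Between 12 and 30 months the log2 difference was -0.81 in the libraries with these transcripts and -0.14 in those without. The 5 genes of fructose bisphosphate control all lay below 0 for 30 against 3 months (48.6% of all genes), with a median of -0.20. Nearest 0 were Pfkfb2, at -0.003, and Pfkfb4, at -0.05. Pfkfb1, Pfkfb3, Pfkfb4 and Fbp2 were lowest in replicate 2 of 30 months, as were 15.0% of all genes. In replicate 1 of that age Pfkfb4 lay above both libraries of 3 months, and Pfkfb1 and Pfkfb3 lay between them.

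At the entry of the route, Hk2, which phosphorylates glucose as it enters the fibre, was at 295 and 314 CPM (3 months), 377 and 477 (12 months), 365 and 511 (24 months) and 390.4 and 382 (30 months). All 6 later libraries lay above both of 3 months. The log2 fold change was 0.49 at 12 months (SE 0.21, unadjusted p = 0.0474, adjusted p = 0.899), 0.52 at 24 months (unadjusted p = 0.0356, adjusted p = 0.627) and 0.34 at 30 months. It was 0.30 at 12 months and 0.25 at 24 months when replicate 2 of the later age was left out. Hk2 was higher in the library without kidney transcripts at each later age, so its highest values, 477 and 511 CPM, were both in that set. The 6 genes of upper glycolysis, from glucose phosphate isomerase to the aldolases, had a median of 0.04 for 30 against 3 months, with 3 above and 3 below 0.

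Most of the 8 genes of lower glycolysis lay below 0 in the comparisons with 3 months, which share their 3 month libraries. For 30 against 3 months 6 were below 0, with a median of -0.37 (48.6% of all genes were below 0). For 24 against 3 months all 8 were (median -0.20, 48.1% of all genes) and for 12 against 3 months 7 (median -0.12, 49.5%). The exceptions at 30 months were the minor isoforms Pgam1 and Eno1. Single libraries had a large part in these counts. Tpi1, Gapdh, Pgk1, Eno1, Eno3 and Pkm were highest in replicate 2 of 3 months. Tpi1, Gapdh, Pgk1, Pgam2, Eno3 and Pkm were lowest in replicate 2 of 30 months. None of the 8 passed the test in any comparison. Pgk1, the first ATP-yielding enzyme of the route, was at 616 and 725 CPM (3 months), 536 and 489.6 (12 months), 433 and 552 (24 months) and 483 and 409.8 (30 months). All 6 later libraries lay below both of 3 months. The 30 month libraries also lay below those of 12 months (15.7% of all genes), and those of 24 months overlapped both. Its log2 fold change for 30 against 3 months was -0.59 (SE 0.20, unadjusted p = 0.0179, adjusted p = 0.446), and its slope was -0.0194 log2 units per month (SE 0.00623, adjusted p = 0.299). Within the libraries with kidney transcripts the differences from 3 months were -0.32, -0.63 and -0.70 at 12, 24 and 30 months. Each of these later values is 1 library, and that of 30 months is replicate 2. Between 12 and 30 months the log2 difference of Pgk1 was -0.39 in the libraries with these transcripts and -0.02 in those without.

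Ldha, which reduces pyruvate to lactate and restores the NAD that lower glycolysis uses, was at 2177 and 2642 CPM (3 months), 2063 and 2039.7 (12 months), 1601 and 1842 (24 months) and 1857 and 1407 (30 months). Every later library was below both of 3 months, and the lowest value was again in replicate 2 of 30 months. Its log2 fold change for 30 against 3 months was -0.56 (SE 0.23, unadjusted p = 0.0373, adjusted p = 0.553). The slope was -0.0210 log2 units per month (SE 0.00656, adjusted p = 0.285 by edgeR's quasi-likelihood test and 0.0426 by DESeq2). Within the libraries with kidney transcripts its differences from 3 months were -0.22 at 12 months, -0.58 at 24 months and -0.77 at 30 months. Each of these later values is 1 library, and that of 30 months is replicate 2. Between 12 and 30 months the log2 difference of Ldha was -0.55 in the libraries with these transcripts and -0.14 in those without. Processed copies of glycolytic genes are common in the genome, and reads that match several places may have been split or lost: Gapdh has 78 near-identical annotated copies, which held 0.566% of its count, and Ldha and Pgk1 have 4 each.

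Slc16a3, the lactate exporter MCT4, was at 263 and 381 CPM (3 months), 305 and 351 (12 months), 239.6 and 261 (24 months) and 284 and 158 (30 months). The 24 month libraries lay below those of 3 months (19.4% of all genes), in the closest case at 261 against 263 CPM, and below those of 12 months. The 30 month libraries lay below those of 12 months (15.7% of all genes) but not all of 3 months. The log2 fold change for 30 against 12 months was -0.57 (SE 0.28, adjusted p = 0.972). It was -1.05 without replicate 1 of 30 months and -0.20 without replicate 2. The slope had an unadjusted p of 0.0332 (adjusted p = 0.447). Gpd2, the mitochondrial enzyme of the glycerol phosphate shuttle that carries reducing equivalents from the cytosol, lies outside the rule for named genes, so it was picked with its values in view. Its level was 237 and 255 CPM (3 months), 167 and 204 (12 months), 175 and 234 (24 months) and 197 and 109.8 (30 months). All 6 later values were below both of 3 months. A fit that holds the library set as a term, and so compares 3 months mainly with the later libraries of the same set, called Gpd2 and Fbp2 lower at 30 months, where 2.13% of all genes were called, and Phka1 and Ppp1r3c for the slope (1.51%).

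The isoform ratios, which do not depend on how libraries are scaled, were tested for a slope on age over 11 pairs by an exact two-sided permutation test of the 8 libraries, whose 2520 orders allow a p as small as 0.000397. None had an unadjusted p below 0.05, and the smallest adjusted p was 0.489. The largest slopes were those of Aldoc against Aldoa, 0.0346 log2 units per month (exact p = 0.136), and of Ldhb against Ldha, 0.0328 (exact p = 0.156). Ldhb, the subunit typical of slow and oxidative fibres, was at 199 and 153 CPM (3 months), 236 and 134 (12 months), 206 and 158 (24 months) and 145 and 356 (30 months). At 30 months 1 library was the highest of all 8 and the other near the lowest. Its fold change for 30 against 3 months was 0.51 on the log2 scale (SE 0.42, adjusted p = 0.822) and -0.27 without replicate 2 of 30 months. As a share of the pair per kilobase, Ldhb was 16.2% and 10.9% (3 months), 19.5% and 12.1% (12 months), 21.3% and 15.3% (24 months) and 14.1% and 34.8% (30 months).

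Replicate 2 of 30 months had the highest ratio in 8 of the 11 pairs. Besides Ldhb these were Hk1, Pfkl, Pfkp, Pygb, Pgam1, Eno1 and Slc16a1 against their partners. The pairs without this pattern were Aldoc against Aldoa, Pfkfb3 against Pfkfb1 and Gpd2 against Gpd1. Among the partners, Pfkm, Pgam2, Eno3, Ldha, Pygm and Slc16a3 had their lowest level in that library, as did 15.0% of all genes. Pgam1, the widely expressed mutase, was at 4.07 to 6.39 CPM and Pgam2 at 953 to 1495 CPM, and replicate 2 of 30 months held the highest Pgam1 and the lowest Pgam2 value. The log2 ratio there was -7.22, against -8.52 to -7.86 in the other libraries. Eno1, the widely expressed enolase, was at 48.9 to 66.6 CPM and Eno3 at 2725 to 4711 CPM, with a log2 ratio of -5.39 in that library and -6.49 to -6.02 in the others. For 30 against 3 months the log2 fold changes were 0.09 for Pgam1 (adjusted p = 0.951), -0.35 for Pgam2 (0.774), 0.07 for Eno1 (0.95) and -0.38 for Eno3 (0.79), by edgeR's quasi-likelihood test. With libraries left out in turn, Pgam2 ran from -0.53 (without replicate 1 of 30 months) to -0.19 (without replicate 2) and Eno3 from -0.65 to -0.15 in the same cases. Without replicate 2 of 3 months they were -0.22 each. The ratio of Slc16a1, the MCT1 carrier of oxidative fibres, to Slc16a3 was -1.04 there on the log2 scale and -2.80 to -1.88 elsewhere. That library also had the highest summed slow fibre genes, though this sum was higher in every later library (1031 to 3007 CPM) than at 3 months (884 and 560.0 CPM). For 30 against 3 months all 10 slow fibre genes lay above 0 (51.4% of all genes), with a median of 1.66 and 1 called (0.148% of all genes). Of the 12 fast fibre genes 10 lay below 0 (48.6% of all genes), with a median of -0.10 and none called. Replicate 2 of 30 months also had the highest sums of macrophage genes (249 CPM) and Schwann cell genes (152 CPM). Its adipocyte, red blood cell, endothelium and fibroblast sums lay inside the range of the other libraries. Replicate 1 of 30 months had the next highest slow fibre sum, 1754 CPM, with Ldhb at 145 CPM. The part of fibre makeup or of other cell types in these ratios was not tested.

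**Figure D4:**
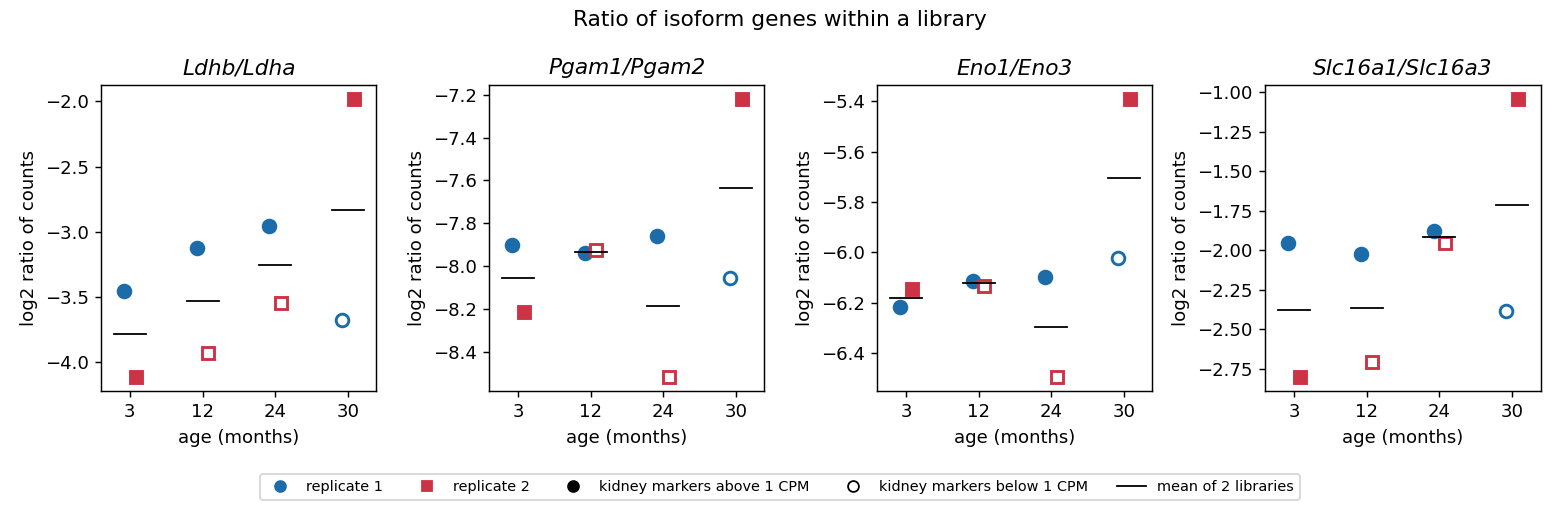
Log2 ratio of counts of 4 isoform pairs by age in months, with circles for replicate 1, squares for replicate 2, open symbols for the libraries without kidney transcripts and a dash at the mean of the 2 libraries. In each pair the highest point is replicate 2 of 30 months, for Ldhb against Ldha at -1.98.

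Libraries of the same age differed in a way that recurred for some members. In the library without kidney transcripts 16 of the 38 genes were higher at each of 12, 24 and 30 months, against 21.2% of all genes, and 6 were lower at each age, against 22.2%. The 16 included Pygm, by a log2 difference of 0.55, 0.38 and 1.09 at 12, 24 and 30 months, Gpd1, the cytosolic enzyme of the glycerol phosphate shuttle, by 0.48, 0.70 and 1.04, and Pfkfb4 by 0.67, 0.54 and 0.63. They also included Hk2, Gys1, Phka1, Slc16a3 and Gpd2. The 6 were Hk1, Pfkp, Pgam1, Eno1, Ldhb and Pygb, all of them isoforms with a lower level than the muscle isoform of the step. Eno1 differed by only -0.0003 at 24 months. Other isoforms with the lower level in their step, Pfkl, Aldoc, Slc16a1 and Pfkfb2, were not lower at all 3 ages. Gpd2, Pfkfb1 and Pfkfb4, which also hold the lower level in their step, were among the 16 that were higher at each age. Ldhb differed by -0.82, -0.39 and -1.30 and Pfkp by -0.64, -0.71 and -0.70. Pfkp overlaps Pitrm1, whose counts came to 350.2% of its own, so its level is uncertain. The clock gene Arntl was lower in the same libraries, at 9.36 to 12.5 CPM against 28.0 to 49.5 CPM, and the part of the time of day in these differences was not tested.

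**Figure D5:**
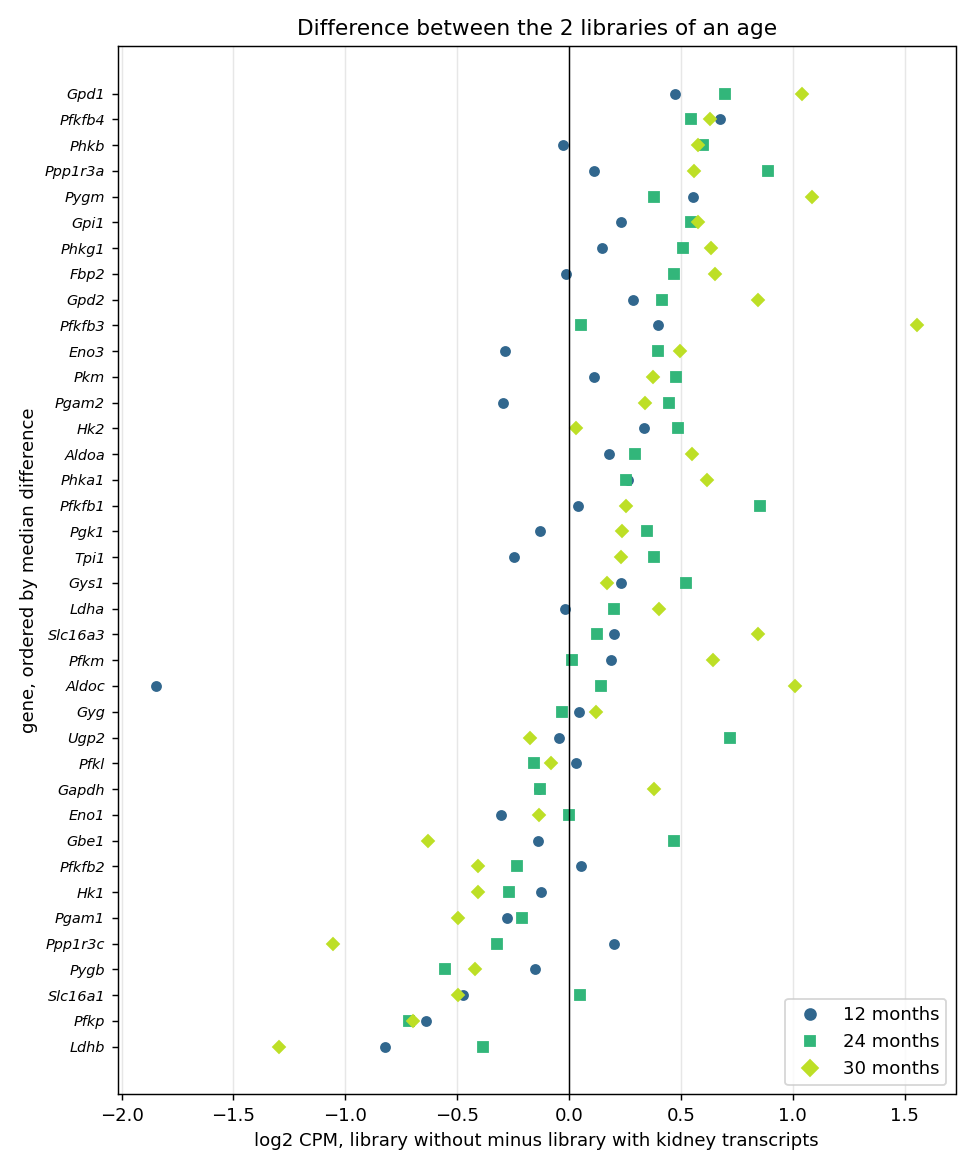
Log2 difference between the library without and the library with kidney transcripts at 12, 24 and 30 months for the 38 genes, with 1 point per age. Points right of 0 at all 3 ages belong to 16 genes, such as Pygm (21.2% of all genes). Points left of 0 at all 3 belong to 6 genes (22.2% of all genes), with Eno1 at -0.0003 at 24 months.

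Beyond the members, 64 genes of the same pathways were listed, covering glucose uptake, other isoforms, glycogen, pyruvate entry and gluconeogenesis, and 59 of them passed the filter on low counts. None was called in the 4 pairwise comparisons by edgeR's quasi-likelihood test with the filter on low counts. At an unadjusted p below 0.05, 1 was higher and 4 were lower for 30 against 3 months (8.52% of all genes in either direction). Pdk4 and Fbp1 were among the 3 with the lowest p for 30 against 3 months. Pdk4, the kinase that shuts pyruvate dehydrogenase when fat is burned, was at 421 and 659 CPM (3 months), 304 and 209 (12 months), 303 and 233 (24 months) and 287 and 211 (30 months). Every later library lay below both of 3 months (6.09% of all genes), and the 3 later ages overlapped. Its log2 fold changes were -1.07, -1.01 and -1.12 at 12, 24 and 30 months (SE 0.29 and adjusted p = 0.255 at 30 months), and DESeq2 gave an adjusted p of 0.00616 at 30 months. Fbp1, the fructose bisphosphatase of liver and kidney, was at 1.32 and 0.278 CPM at 3 months and 0.132 to 0.226 CPM later, with a log2 fold change of -2.11 for 30 against 3 months (SE 0.69, adjusted p = 0.398). At 3 months, the omission of replicate 1 made that value -0.62 and that of replicate 2 made it -2.85. With no filter on low counts, edgeR's test called Fbp1 (adjusted p = 0.0179) and Pdk4 (adjusted p = 0.000468) for 30 against 3 months. The highest value of Fbp1 was in replicate 1 of 3 months, the library with the most kidney transcripts.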

How the data were processed

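Per the labels' protocols, frozen gastrocnemius gave total RNA by Trizol, and NEBNext Ultra reagents were used for the libraries. The authors deposited whole-number counts per Ensembl gene, not normalized, in 1 file per library. The submitters' processing notes name STAR 2.5.2b, Subread 1.5.2, featureCounts, Trimmomatic 0.36 and the builds mm10 and GRCm38, but not what each was used for. Not given in the sources used here: the annotation release, the strand setting and how multi-mapping reads were treated. Symbols came from GENCODE M21 (49056 of 49315 identifiers matched), and coordinates from the count files, on GRCm38.

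The counts were fitted with edgeR 4.0.16 in R 4.3.3 (filterByExpr, TMM, robust quasi-likelihood with 4 residual degrees of freedom for the ages, all 8 libraries) and Benjamini-Hochberg adjustment over all genes tested. Means have no error beyond the 2 libraries printed, and an SE is the log2 fold change over the square root of F. Isoform ratios used counts plus 0.5. Alternatives were DESeq2 1.42.0, limma-voom (limma 3.58.1), RLE factors, library totals alone, no filter, a replicate block, the library set as a term, a slope without 3 months, a pseudocount of 5 for ratios, and each library left out, in which case the lone library of that age is taken to vary as the other ages do. The library set was split at 1 CPM of the summed kidney genes. The test was tried on simulated counts.

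Named members are those called, the 3 with the lowest p in each test, and the genes of the Ldh, Pgam and Eno pairs. Of the other pathway genes, those called and the 3 with the lowest p for 30 against 3 months are named. A pathway gene that this rule would name, and the results on the slope that need it, are not reported here, with no substitute. Members, lists and the library set were chosen with earlier results of these data known. Near-identical copies are transcripts of other genes with at least 95% identity over 200 bases. Alternative splicing was not analysed here, so the splice forms of Pkm are counted together.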

Additional observations from a re-analysis of the deposited data

How the results depend on the processing

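The number of members called for 30 against 3 months was 0 and became 2 with no low count filter, 2 with DESeq2 and 2 with the library set as a term. For 24 against 3 months it became 1 with no filter and 1 with DESeq2, and for the slope 1 with no filter, 2 with DESeq2 and 2 with the library set. Leaving out each library in turn gave 0 to 1 member for 30 against 3 months (Ppp1r3c without replicate 2 of 30 months), 0 to 1 for 24 against 3 months (Ppp1r3c without either library of 30 months), 0 to 1 for the slope (Ppp1r3c without replicate 2 of 30 months), 0 to 0 for 12 against 3 and 30 against 12 months, and 0 to 1 for the isoform ratios (Eno1 against Eno3 without replicate 2 of 24 months). RLE factors, library totals and limma-voom gave 0 in all 5 tests. The cause of these differences was not tested. For 30 against 3 months 3 log2 fold changes turned: with libraries left out in turn, Eno1 ran from -0.10 (without replicate 1 of 3 months) to 0.27, Ldhb from -0.27 (without replicate 2 of 30 months) to 1.02 and Pgam1 from -0.18 (without the same library) to 0.31. Over the named genes and ratios under all alternatives, 343 values kept their direction and side of the threshold, 18 passed it newly and 3 reversed.

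Replicate numbers did not pair the libraries: across genes, deviations of replicate 1 from its age mean correlated between ages at -0.475 to 0.330. With the replicate number as a block, 0 members were called in each of the 5 tests, and 0 isoform pairs. With 2 libraries an age the depth is not the limit for most members, but Aldoc, at 10 counts in its lowest library, and Fbp1, at 6, are limited by counting error.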

Other observations

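Of the genes of glucose uptake, Slc2a4, the insulin-responsive transporter GLUT4, was at 296 to 446 CPM over the 8 libraries, and Slc2a1, GLUT1, at 8.63 to 16.3 CPM. Tbc1d4, a regulator of GLUT4 traffic picked here after its values were seen, was at 57.0 and 51.2 CPM at 3 months and at 63.6 to 108 CPM in the 6 later libraries, all above 3 months (6.86% of all genes). It was higher in the library without kidney transcripts at 12, 24 and 30 months, by a log2 difference of 0.77, 0.26 and 0.54. Within the libraries with these transcripts it differed from 3 months by 0.23, 0.61 and 0.34. At 3 months age and the library set cannot be told apart.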
